A study of Mus musculus with 12 samples.

Results

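Myc-CaP is a mouse prostate cancer cell line that grows as a tumor when injected under the skin of syngeneic mice, and the measurements here set 3 libraries of vehicle-treated Myc-CaP tumors beside 3 libraries of DMSO-treated Myc-CaP cells in culture. These 6 of the 12 RNA-seq libraries of the series were chosen by their labels, and genes were joined by gene ID and kept where both count tables listed them, which gave 34507 genes out of 40077 in the cell table and 34508 in the tumor table. The tumors grew subcutaneously in male FVB mice with an intact immune system that received vehicle by mouth, and the cultured cells received DMSO, the solvent of the study's CDK12/13 degrader YJ1206. The ages of the mice were not given in the sources used here. All 6 libraries came from a line that carries a MYC transgene, and a subcutaneous graft is not the prostate. The labels gave polyA RNA for the cells and total RNA for the tumors, whereas the methods named the same ribosomal RNA depletion for the series. Growth as a tumor, host tissue in the tumor, library type and batch therefore changed together, and their parts in any difference below cannot be told apart. The methods described the study's data as biologically independent replicates, but the labels did not tie these libraries to separate animals or cultures, and the p-values measure the spread between these libraries.

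The vehicle tumor libraries held 22112785, 26928447 and 15391684 estimated counts and the DMSO cell libraries held 18368939, 18198194 and 18520071. All values below that are given in threes follow the order of libraries 1, 2 and 3, tumors before cells, and are counts-per-million values (CPM) after scaling by trimmed mean of M values (TMM) unless transcripts-per-million values (TPM) are named. A count was worth 0.0331 to 0.0575 CPM in a tumor and 0.0614 to 0.0628 CPM in cells. Library 3 of the vehicle tumors was not shown to be an independent sample. Of 617 genes that differed at least 2-fold between tumors 1 and 2, 98.5% had tumor 3 between them, and among 12654 genes with at least 50 mean counts its values lay closest to a mixture with a weight of 0.597 for tumor 1. The counts of called members are therefore also given without it where they changed, in 15 of the 42 gene lists used. Standard errors (SE) and adjusted p-values of single genes below count tumor 3 as a sample. The adjusted p-values are from edgeR's quasi-likelihood test. Each standard error was derived as the absolute log2 fold change over the square root of the test's F statistic, so it is approximate at low counts. Without tumor 3 the adjusted p in that test was 8.0e-07 instead of 7.0e-09 for Egr1 and 7.3e-06 instead of 6.8e-08 for Mcm4. Replication-dependent histone genes, whose messages lack a poly(A) tail, were at 699, 598 and 635 CPM of the unscaled total in the tumors and 32.5, 36.1 and 34.3 in the cells for those listed by older symbols. For those listed by newer symbols the values were 5972, 4867 and 5442 CPM in the tumors and 60.3, 68.4 and 65.8 CPM in the cells. Mitochondrial genes took 2.55%, 2.15% and 2.46% of the tumor counts and 3.50%, 3.41% and 3.38% of the cell counts.

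A tumor is a tissue. Beside the cancer cells it holds vessels, fibroblasts that lay down collagen, and white blood cells, and cells far from a vessel receive less oxygen and fewer nutrients than cells in a culture dish. A culture dish by contrast holds the cancer cells alone, dividing in rich medium. In bulk RNA a lower level can come from fewer cells of a type or from less RNA per cell, and these cannot be told apart here.

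Most genes differed between the tumors and the cultured cells. Of 14610 genes tested with edgeR's quasi-likelihood test, 11881 (81.3%) passed an adjusted p of 0.05, with 6550 (44.8%) higher and 5331 (36.5%) lower in the tumors. At least 2-fold differences were found for 4848 genes higher (33.2%) and 1370 genes lower (9.38%), and the tumor and cell libraries did not overlap for 12284 genes (84.1%). Without tumor 3, 11297 of 14783 genes tested were called (76.4%), 6313 higher (42.7%) and 4984 lower (33.7%), 4904 (33.2%) and 1351 (9.14%) of them by at least 2-fold. The median log2 fold change over all genes tested was 0.13 with TMM scaling and 0.48 with scaling by total counts, and 71.0% of called genes were then higher in the tumors against 55.1% with TMM. Differences of a gene list below are read against that median, and small single differences depend on the scaling. A gene silent in the cultures entered the test only through its tumor level, so the counts of higher members are descriptions in every list with such genes, pathway lists included.

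Prostate luminal and androgen response genes were mostly higher in the tumors. Of 14 tested members of a list of 20, 10 were higher and 3 lower, with a median log2 fold change of 1.17. Hoxb13, a homeobox gene of the prostate, was higher (log2 fold change 0.69 ± 0.08 SE, adjusted p = 1.2e-04). Foxa1, a pioneer factor that opens chromatin in luminal cells, was lower, at 165, 209 and 183 CPM in the tumors and 326, 321 and 324 CPM in the cells (log2 fold change -0.80 ± 0.08 SE, adjusted p = 5.4e-05), with every tumor below every culture.

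Among the androgen response genes, Steap4, a metalloreductase, was at 91.7, 154 and 119 CPM in the tumors and 1.25, 1.57 and 2.27 CPM in the cells (log2 fold change 6.15 ± 0.28 SE, adjusted p = 9.4e-07). Slc45a3, a membrane transporter of the prostate, was also higher (log2 fold change 4.09 ± 0.54 SE, adjusted p = 2.3e-04). Pmepa1, which dampens TGF-beta signaling, was listed at 0 in all 3 cell libraries and was at least 47.6-fold higher in the tumors. Acsl3, a fatty acyl-CoA ligase, was lower like Foxa1 (log2 fold change -1.28 ± 0.06 SE, adjusted p = 1.1e-06).

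Epithelial genes were mostly higher in the tumors, with exceptions. Krt8, a keratin of luminal cells, was at 73.3, 60.7 and 67.5 CPM in the tumors and 3.74, 3.83 and 3.38 CPM in the cells (log2 fold change 4.20 ± 0.11 SE, adjusted p = 1.8e-07), with no overlap. Cldn4, a tight junction protein, was also higher (log2 fold change 4.40 ± 0.16 SE, adjusted p = 4.3e-07). Of 12 tested members among 18 epithelial genes, 10 were higher and 1 was lower (2 without tumor 2). Of the usual defining markers of epithelium, Epcam had at most 4 counts in any library, and Cdh1 had 19, 12 and 20 counts in the tumors and at most 1 in a cell library.

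Genes of the Y chromosome were detected in the tumors and almost absent from the cultures. Their summed level was 10.5, 7.69 and 9.90 TPM in the tumors and 0.27 to 0.48 TPM in the cells, and 5 of 8 members could be tested and were higher. Since 6 of the 8 had at most 3 counts in every cell library, that count was largely fixed by the filter. Ddx3y, a helicase gene, was at 6.35, 5.13 and 8.11 CPM in the tumors and 0.187, 0.126 and 0 CPM in the cells (log2 fold change 5.89 ± 0.49 SE, adjusted p = 1.9e-05). Uty, a histone demethylase gene, was listed at 0 in the cells and was at least 15.1-fold higher in the tumors, which grew in male hosts. Kdm5d, another demethylase gene, showed a smaller difference (log2 fold change 2.71 ± 0.29 SE, adjusted p = 7.3e-05).

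**Figure D1:**
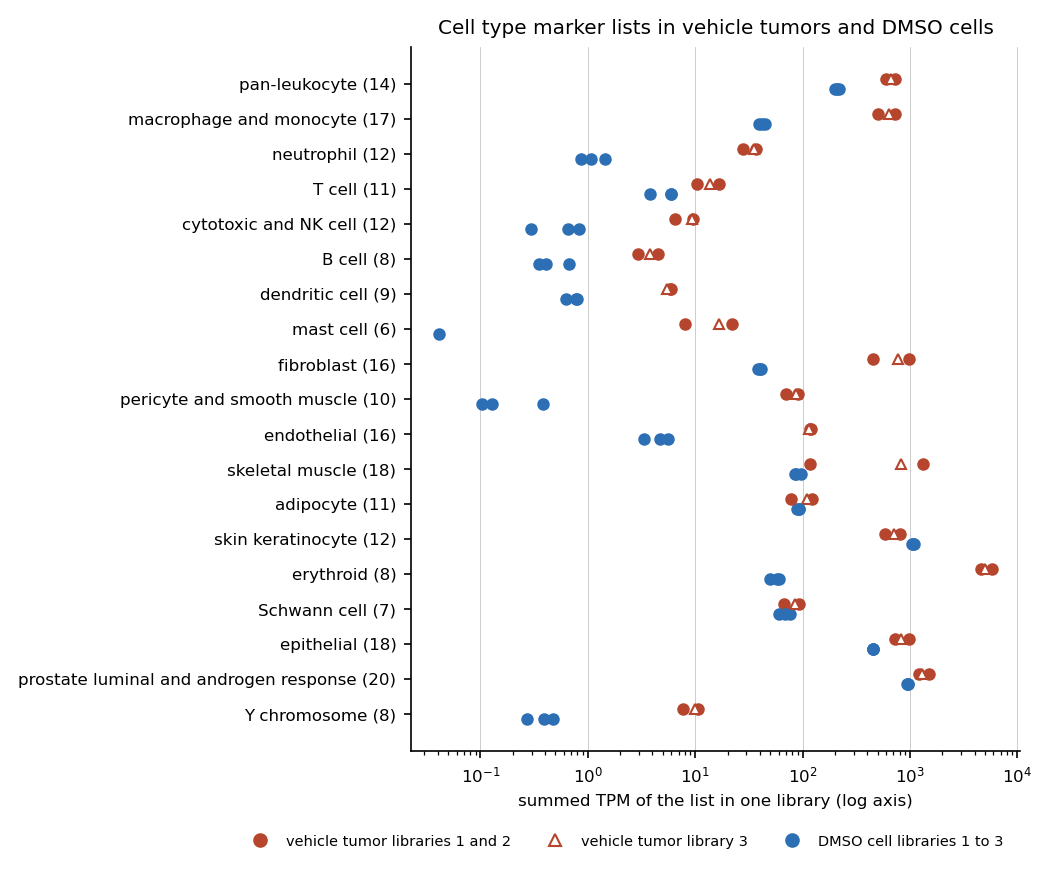
Summed TPM of each cell type marker list in each library on a log axis, with the number of genes of the list in both tables in parentheses, filled red circles for vehicle tumors 1 and 2, open triangles for tumor 3 and blue circles for DMSO cells (a library at 0 TPM, as for mast cell markers, has no point). Pericyte, endothelial, macrophage and erythroid lists lie far to the right in all 3 tumors, and fibroblast and skeletal muscle lists spread widely among the tumors.

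White blood cell genes were higher in every tumor, and macrophage markers had the largest sum among the leukocyte lists that name a cell type. All 14 tested members of the pan-leukocyte list were called higher, 9 of them with at most 3 counts in every cell library. Ptprc, which encodes the CD45 antigen of all nucleated blood cells, was at 11.8, 11.8 and 12.4 CPM in the tumors and 0 CPM in every cell library, at least 64.2-fold higher in the tumors by the floor of 3 counts per library. Such floors and the intervals below cover counting error only. The summed pan-leukocyte level was 603, 724 and 668 TPM in the tumors against 202, 211 and 218 TPM in the cells, where it came mostly from Arhgdib, an inhibitor of small GTPases.

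Of 17 macrophage and monocyte genes, 16 were higher and none lower, and their sum was 731, 501 and 641 TPM against 39.1, 44.5 and 42.1 TPM. In every cell library 11 of the 17 had at most 3 counts. Csf1r, the receptor for macrophage growth factor, was at 36.3, 21.2 and 31.8 CPM in the tumors and 0, 0.126 and 0 CPM in the cells, a ratio of 717 with a 95% counting interval of 199 to 5922. C1qa, a complement subunit made by tissue macrophages, was at 30.1, 26.9 and 25.9 CPM in the tumors and 0 CPM in every cell library, at least 148-fold higher. Mrc1, a mannose receptor of macrophages, was at 76.4, 30.3 and 52.9 CPM in the tumors and 0 CPM in every cell library, with tumor 1 the highest and tumor 2 the lowest. Macrophage gene levels thus differed among the tumors, while every tumor stayed above every culture.

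Sums of the other leukocyte lists that name a cell type were smaller, and sums over unequal lists do not measure numbers of cells. Neutrophil genes summed to 37.1, 28.1 and 35.7 TPM in the tumors and to 0.87 to 1.46 TPM in the cells, with 6 of 6 tested members of 12 higher. S100a9, a calcium-binding protein abundant in neutrophils, was at 1.68, 1.09 and 2.13 CPM in the tumors and 0 CPM in every cell library, at least 8.75-fold higher. Mast cell genes summed to 22.2, 7.97 and 16.8 TPM against at most 0.04 TPM, with 4 of 4 tested higher, and dendritic cell genes had 4 of 4 tested members of 9 higher. In every cell library 10 of 12 neutrophil, 6 of 6 mast cell and 7 of 9 dendritic cell genes had at most 3 counts. The counts of higher members in these lists were therefore largely fixed by the filter. The sums of these lists were below the macrophage sum in every tumor and at or near 0 in the cultures.

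Lymphocyte genes were at low levels. The immunoglobulin genes Ighm and Igkc and the T cell receptor genes Trac and Trbc2 were not analysed here, since no shared row carried these symbols. T cell markers summed to 10.4, 16.6 and 13.7 TPM in the tumors and 5.99, 3.78 and 5.93 TPM in the cells, and 4 of the 11 in both tables could be tested, of which 3 were higher. Leaving out any of the DMSO cell libraries let 5 pass, and leaving out tumor 3 let 4 pass. Cd3e, a subunit of the T cell receptor complex, was at 0.0799, 0.364 and 0.345 CPM in the tumors and 0, 0 and 0.0614 CPM in the cells, too low to be tested. Cd8a, the co-receptor of killer T cells, was at 2.92, 4.37 and 3.34 CPM in the tumors and 0.374, 0.565 and 0.307 CPM in the cells (log2 fold change 3.08 ± 0.31 SE, adjusted p = 5.5e-05). Gzmb and Prf1, the cytotoxic granule genes, and Ms4a1, a defining B cell gene, were not tested for low counts. Of 10 B cell genes listed, 8 were in both tables, and 1 could be tested and was higher (2 without tumor 1 or DMSO cells 1), and cytotoxic and NK cell genes had 2 of 2 tested members higher with 6.52, 9.56 and 9.25 TPM in sum against 0.30 to 0.83 TPM. In every cell library 10 of 12 cytotoxic and NK cell genes had at most 3 counts, so their count was largely fixed by the filter.

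Fibroblast genes were high in all tumors and differed among them. Their sum was 987, 452 and 773 TPM against 38.3 to 40.9 TPM in the cells, and 14 of 15 tested members of 16 were higher. At most 3 counts in every cell library were found for 8 of the 16. Col1a1, a chain of type I collagen, was at 764, 311 and 579 CPM in the tumors and 0.249, 0.628 and 0.307 CPM in the cells (log2 fold change 10.43 ± 0.54 SE, adjusted p = 1.7e-06). Col3a1, the type III collagen of loose connective tissue, was at 689, 123 and 454 CPM in the tumors and 0 CPM in every cell library, at least 2263-fold higher. Pdgfra, a growth factor receptor of fibroblasts, was expressed in the cultures as well and showed a smaller difference (log2 fold change 1.83 ± 0.25 SE, adjusted p = 2.9e-04). Tumor 1 was the highest and tumor 2 the lowest for both collagens.

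Endothelial genes were even among the tumors. Endothelial markers summed to 118, 120 and 115 TPM against 3.34 to 5.57 TPM, and 15 of 15 tested members of 16 were higher (16 of 16 without tumor 3). Cdh5, the cadherin that joins endothelial cells, was at 30.99, 33.1 and 32.4 CPM in the tumors and 0 CPM in every cell library, at least 173-fold higher. Kdr, the receptor for vascular endothelial growth factor, was at least 123-fold higher over cells at 0. Pericyte and smooth muscle markers, from the cells that wrap vessels, summed to 91.6, 70.3 and 86.1 TPM against 0.10 to 0.39 TPM, with 9 of 9 tested higher. Des, a member of this list, held 37.6, 4.19 and 25.7 TPM of these tumor sums, ordered among the tumors like the muscle genes below. Pdgfrb, the pericyte growth factor receptor, was at least 90.7-fold and Acta2, smooth muscle actin, at least 131-fold higher. At most 3 counts in every cell library were found for 8 of 10 pericyte and 11 of 16 endothelial genes. The counts of higher members in these lists were thus largely fixed by the filter.

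Skeletal muscle RNA was present in very unequal amounts. The muscle list summed to 1313, 118 and 831 TPM in the tumors and 84.9 to 97.4 TPM in the cells, and 15 of 16 tested members of 18 were higher. At most 3 counts in every cell library were found for 13 of the 18. Ttn, the giant spring protein of the sarcomere, was at 1587, 84.5 and 987 CPM in the tumors and 0, 0.126 and 0 CPM in the cells. Myh4, a fast muscle myosin, was at 241, 0.232 and 145 CPM in the tumors and 0 CPM in every cell library and did not enter the test. Acta1, skeletal actin, was at 213, 4.57 and 128 CPM in the tumors and 0.125, 0.188 and 0.245 CPM in the cells. Tumor 2 held little muscle RNA, tumor 1 the most and tumor 3 an intermediate amount, so the size of the muscle differences was set by tumors 1 and 3.

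Blood was the largest marker signal by summed TPM. The erythroid list summed to 4583, 5853 and 5040 TPM against 49.4 to 60.2 TPM, with 6 of 7 tested members of 8 higher (7 of 8 without tumor 3). At most 3 counts in every cell library were found for 5 of the 8. Hbb-bs, a beta globin, was at 493, 660.0 and 555 CPM in the tumors and 0 CPM in every cell library, at least 3052-fold higher, and Hba-a1, an alpha globin, was at 548, 733 and 623 CPM in the tumors and 4.86, 4.21 and 4.79 CPM in the cells (log2 fold change 7.10 ± 0.14 SE, adjusted p = 6.8e-08). Both globins share long identical stretches with a neighboring copy, so the split between copies is uncertain. Alas2, the heme synthesis enzyme of red cell precursors, was at least 102-fold higher. The 1 lower member was Bpgm, which makes a regulator of hemoglobin and is expressed outside red cells too (log2 fold change -0.995 ± 0.13 SE, adjusted p = 2.3e-04).

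The remaining marker lists held adipocyte, skin and nerve genes. Adipocyte genes summed to 121, 77.3 and 109 TPM against 88.5 to 93.4 TPM, with 5 of 6 tested members higher, 1 lower and a list median of 2.62 on the log2 scale. Skin keratinocyte genes summed to less in the tumors, at 809, 584 and 713 TPM against 1042 to 1085 TPM, with 1 of 3 tested members higher and 2 lower. Krt15 alone held most of these sums, at 785, 563 and 693 TPM in the tumors and 1015, 1041 and 1055 TPM in the cells. In each material 7 of the 12 listed genes had at most 3 counts in every library. Of 4 tested Schwann cell genes, 1 was higher and 2 were lower, and these calls fell to 0 and 1 without tumor 3 or without any of the DMSO cell libraries. Of the skin or nerve lists, neither was raised as a whole.

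A set of 954 genes was seen in the tumors alone, with at most 3 counts in every cell library and at least 1 CPM in every tumor, whereas 6 genes met the opposite rule. The tumor set held 897 protein-coding genes and 54 pseudogenes, 459 of the genes were at 0 in all 3 cell libraries, and 64 belonged to a marker list. Hspg2, the perlecan core of basement membranes, was at 114, 113 and 111 CPM in the tumors and 0 CPM in every cell library, at least 604-fold higher and nearly equal in the tumors. Thbs1, an inhibitor of vessel growth, was at 231, 161 and 206 CPM in the tumors and 0 CPM in every cell library (at least 1069.6-fold higher), and Tnc, a matrix protein of wounds and tumors, was at least 693-fold higher. Bgn, a small matrix proteoglycan, was at least 540.1-fold and Igfbp3, which binds insulin-like growth factors, at least 477-fold higher.

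Fibrinogen genes, best known from the liver, were also in that set. Fgg, the gamma chain, was at 61.3, 264 and 144 CPM in the tumors and 0 CPM in every cell library, highest in tumor 2, and at least 837-fold higher. Fgb, the beta chain, was at 226, 287 and 248 CPM in the tumors and 0, 0.0628 and 0 CPM in the cells with 1 count in all cell libraries together, a ratio of 12256 with a 95% counting interval of 2199.7 to 484085. Tumor 2, which held the least muscle and collagen RNA, held the most fibrinogen RNA.

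Complement and basement membrane genes followed. Of 12 complement genes, 11 could be tested and were higher, 5 of the 12 with at most 3 counts in every cell library, with a median log2 fold change of 5.40 when members at the floor in the cells were set to their floor. C3, the central complement protein, was higher in the tumors (log2 fold change 6.57 ± 1.01 SE, adjusted p = 5.1e-04), and Cfb, of the alternative pathway, was at least 89.4-fold higher. Of 15 basement membrane genes, 13 were higher and 1 lower with a median of 4.17. Col4a1, a chain of type IV collagen, was at 206, 199 and 202 CPM in the tumors and 4.18, 5.34 and 4.79 CPM in the cells (log2 fold change 5.41 ± 0.08 SE, adjusted p = 2.3e-08).

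Mesenchymal genes did not move together. Of 20 mesenchymal and matrix remodeling genes, 14 were higher and 5 lower. Mmp2, a gelatinase, was at least 108-fold and Tgfbi, a matrix adaptor, at least 65.4-fold higher over cells at 0, and Zeb1, a repressor of epithelial genes, had 1 count over the cells, a ratio of 349 with a 95% counting interval of 62.6 to 13768. Vim, the intermediate filament of mesenchymal and cultured cells, was lower, at 142, 145 and 143 CPM in the tumors and 406, 442 and 417 CPM in the cells (log2 fold change -1.56 ± 0.05 SE, adjusted p = 2.7e-07), and Timp1, a protease inhibitor, was lower too (log2 fold change -1.32 ± 0.06 SE, adjusted p = 8.6e-07). Of 16 tested cell-cell junction and adhesion genes, 8 were higher and 7 lower, near the 44.8% higher and 36.5% lower over all genes tested. Itgb4 (5.11 ± 0.29 on the log2 scale) and Itga2 (4.17 ± 0.29), integrins that bind laminin and collagen, were higher, while Cldn1 (-1.89 ± 0.17), a tight junction claudin, was lower.

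**Figure D2:**
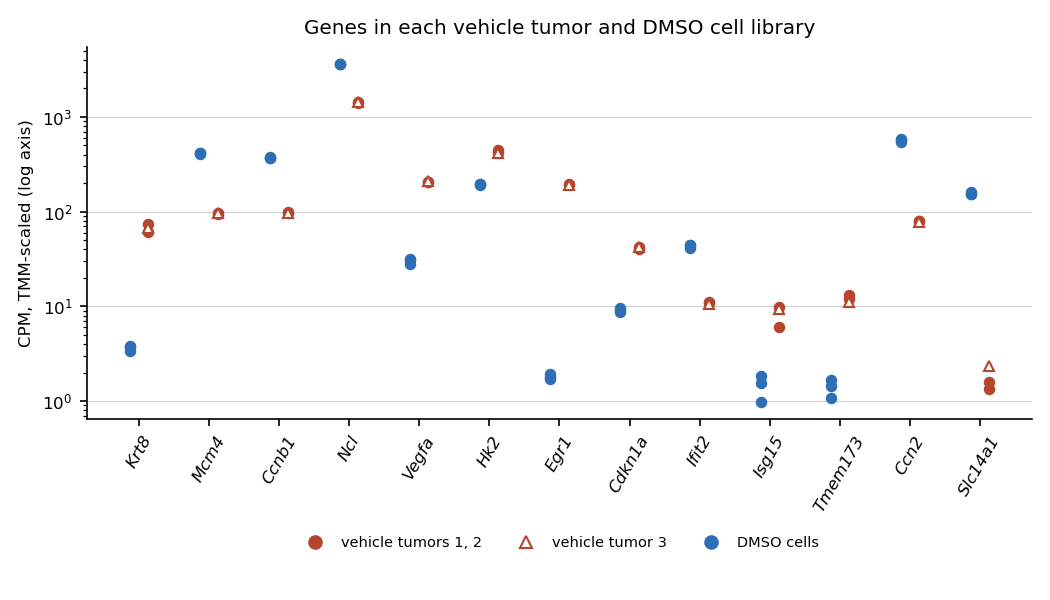
CPM on a log axis of named genes in each library, with filled red circles for vehicle tumors 1 and 2, open triangles for tumor 3 and blue circles for DMSO cells. For every gene drawn the tumor and cell libraries form separate clusters, with Mcm4, Ccnb1, Ncl, Ifit2, Ccn2 and Slc14a1 lower and the others higher in the tumors.

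Cell division genes were lower in the tumors without exception in the lists examined. All 37 DNA replication genes were called lower, 31 of them at least 2-fold, with a median log2 fold change of -1.48. Mcm4, a subunit of the replicative helicase, was at 97.8, 93.7 and 96.3 CPM in the tumors and 420.0, 421 and 409 CPM in the cells (log2 fold change -2.12 ± 0.04 SE, adjusted p = 6.8e-08). Rrm2 (-2.09 ± 0.09 on the log2 scale), which makes deoxynucleotides, Mcm2 (-1.79 ± 0.14), another helicase subunit, and Pcna (-1.69 ± 0.05), the polymerase clamp, were lower by similar amounts. For Mcm4 neither the tumors nor the cultures differed much among themselves.

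Mitosis genes showed the same direction. All 32 members were lower, 28 at least 2-fold, with a median of -1.42. Ccnb1, the cyclin of mitotic entry, was at 95.9, 100.3 and 97.2 CPM in the tumors and 379, 371 and 368 CPM in the cells (log2 fold change -1.93 ± 0.04 SE, adjusted p = 9.9e-08). Plk1, a mitotic kinase (-1.87 ± 0.06 on the log2 scale), and Mki67, the proliferation antigen Ki-67 (-1.17 ± 0.05), were also lower. Scaling by total counts left 36 of the 37 replication genes and 32 of the 32 mitosis genes lower, with medians of -1.13 and -1.06. Markers of host cells were higher in the same tumors, as described above, and their part in these differences was not tested.

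Ribosome biogenesis genes, many of them direct targets of MYC, formed a lower group of similar size. All 30 members were lower, 19 at least 2-fold, with a median log2 fold change of -1.14. Ncl, the nucleolar protein nucleolin, was at 1424, 1417 and 1436 CPM in the tumors and 3604, 3632 and 3615 CPM in the cells (log2 fold change -1.34 ± 0.03 SE, adjusted p = 1.6e-07). Npm1, another nucleolar protein (-1.11 ± 0.05 on the log2 scale), and Odc1, the entry enzyme of polyamine synthesis and a classical MYC target (-1.81 ± 0.06), were lower as well. With total count scaling the median was -0.79 and 28 members were lower.

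**Figure D3:**
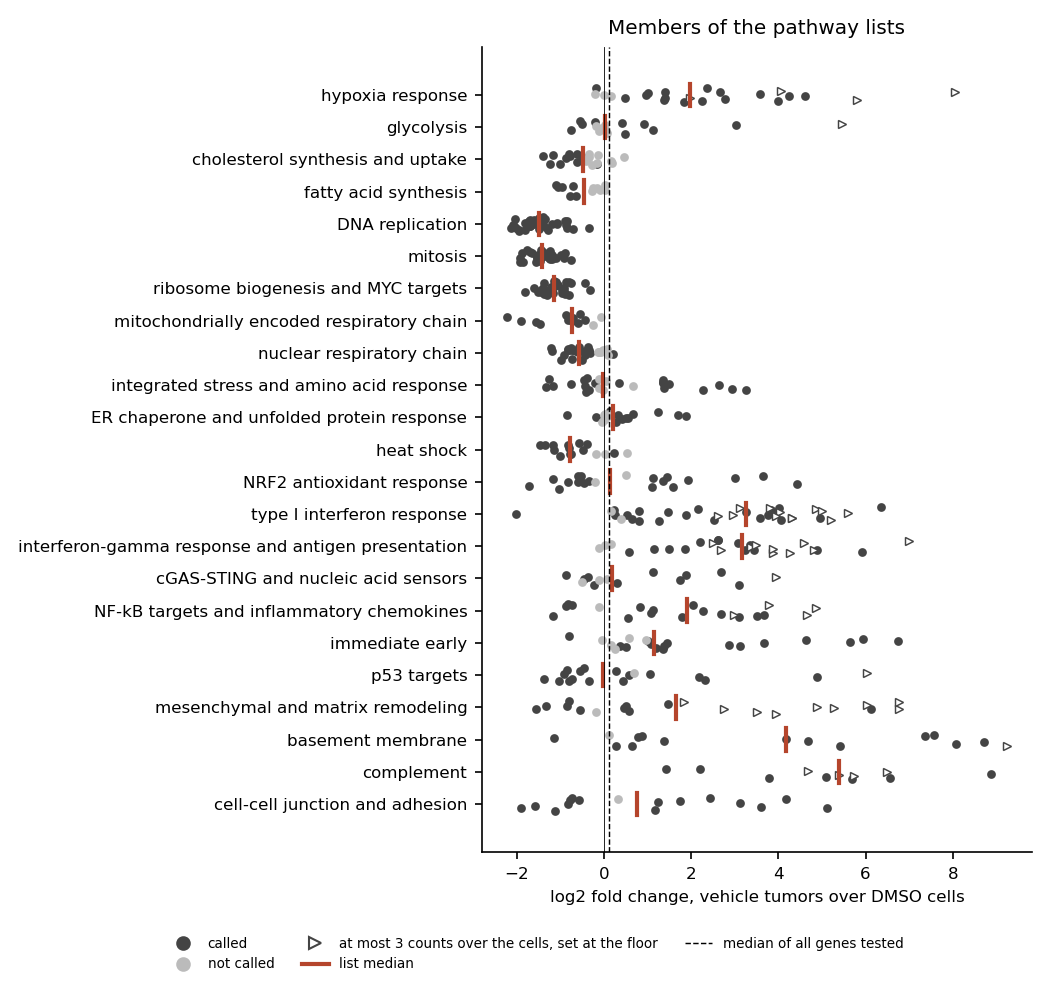
Log2 fold change of each tested member of the pathway lists, tumors over cells, with dark points for called and grey points for uncalled genes, open triangles for genes with at most 3 counts over the cells set against the floor, red bars for list medians and a dashed line at the median of all genes tested. The DNA replication, mitosis and ribosome biogenesis lists lie wholly left of 0, and the hypoxia, interferon and complement lists lie mostly to the right.

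Hypoxia response genes were higher in the tumors. Cells short of oxygen stabilize the HIF factors, which bind the short DNA element ACGTG or GCGTG and switch on genes for vessel growth, glycolysis and pH control. Of 23 listed genes, all of them tested, 19 were higher and 1 lower (19 and 0 without tumor 3, and 22 and 0 with total count scaling), with a median log2 fold change of 1.96 when members at the floor in the cells were set to their floor, against 0.13 over all genes. The RefSeq promoter table (GRCm38.p6, 250 bases before to 50 after each start) held 19 of these genes, and 19 of the 19 held ACGTG or GCGTG on either strand at 1 or more of their starts, against 46.7% of all 27025 genes. The list was made of known hypoxia genes, so this share describes the list, and HIF binding in the tumors was not tested. The 250 bases before the start of Egln3 (chr12:54203875-54204124, minus strand), a HIF hydroxylase that hypoxia induces, and of Car9 (chr4:43506776-43507025, plus strand), the carbonic anhydrase of hypoxic tumor cells, are shown with the element in capitals on either strand, 1 match in each. Both genes have 1 start in the table.
Egln3: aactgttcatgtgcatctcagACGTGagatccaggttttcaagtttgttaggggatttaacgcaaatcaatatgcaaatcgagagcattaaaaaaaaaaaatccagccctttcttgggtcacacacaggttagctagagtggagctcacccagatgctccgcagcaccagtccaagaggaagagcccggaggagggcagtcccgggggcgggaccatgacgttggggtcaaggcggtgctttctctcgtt
Car9: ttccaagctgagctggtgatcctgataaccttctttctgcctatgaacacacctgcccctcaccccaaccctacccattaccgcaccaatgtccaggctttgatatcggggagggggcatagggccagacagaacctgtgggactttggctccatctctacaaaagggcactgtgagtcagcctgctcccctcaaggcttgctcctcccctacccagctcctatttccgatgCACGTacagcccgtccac

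Vegfa, the vessel growth factor, was at 207, 206 and 210.0 CPM in the tumors and 28.1, 31.9 and 30.5 CPM in the cells (log2 fold change 2.78 ± 0.06 SE, adjusted p = 7.2e-08), nearly equal among the tumors. Egln3 was at 2.76, 3.44 and 3.16 CPM in the tumors and 0 CPM in every cell library, at least 16.7-fold higher. Car9 was higher (log2 fold change 3.98 ± 0.31 SE, adjusted p = 1.2e-05). Ndrg1, a stress-induced gene, was at least 55.96-fold and Lox, which crosslinks collagen, at least 265-fold higher over cells at 0. Lox is also made by fibroblasts and Vegfa by many tissues, so the cells of origin cannot be told apart. The 1 lower member was Pfkfb3, a regulator of glycolysis, by a small amount (log2 fold change -0.18 ± 0.06 SE, adjusted p = 0.025), a call lost without tumor 3 or DMSO cells 2 or 3, and its direction turned with total count scaling (0.17).

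Glycolysis genes as a group were close to the median of all genes. Of 16, 6 were higher and 4 lower (3 lower without tumor 3), with a median log2 fold change of 0.02. Hk2, the hexokinase that cancer cells use to trap glucose, was at 415, 445 and 420.0 CPM in the tumors and 192, 196 and 196 CPM in the cells (log2 fold change 1.13 ± 0.04 SE, adjusted p = 5.7e-07). Slc16a3, the lactate exporter that hypoxia induces, had 1 count over the cells, a ratio of 395 with a 95% counting interval of 70.9 to 15611, and Aldoc, an aldolase, was higher (log2 fold change 3.03 ± 0.23 SE, adjusted p = 1.1e-05). Pgam1 (-0.75 ± 0.05 on the log2 scale) and Tpi1 (-0.56 ± 0.07), enzymes of the common lower and middle steps, were lower.

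Lipid synthesis genes were partly lower. Of 23 tested cholesterol synthesis and uptake genes none was higher and 13 were lower (12 lower without tumor 3, 2 higher without tumor 1, and 1 higher and 20 lower without tumor 2), with a median log2 fold change of -0.48. Idi1, of the isoprenoid steps, was at 49.8, 67.5 and 60.2 CPM in the tumors and 163, 149.8 and 153 CPM in the cells (log2 fold change -1.39 ± 0.11 SE, adjusted p = 1.1e-05), with every tumor below every culture. With total count scaling 4 were higher and 8 lower, and the median was -0.12. Of 12 fatty acid synthesis genes none was higher and 6 were lower (11 without tumor 2), beside 36.5% lower over all genes tested. Their median was -0.46, but -0.11 with total count scaling and 0.17 in the fit on log2(TPM + 1), so its direction depended on the processing. Among the lower ones were Fads2 (-1.05 ± 0.15 on the log2 scale) and Scd2 (-0.97 ± 0.23), which put double bonds into fatty acids.

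Respiratory chain genes were lower by less than the division genes. Of 27 nuclear-encoded subunits, 20 were lower and 1 was higher, with a median of -0.57 (15 lower, 7 higher and -0.22 with total count scaling). Cycs, cytochrome c (-1.20 ± 0.06 on the log2 scale), and Ndufs1, of complex I (-0.51 ± 0.05), were lower, the call of Ndufs1 being lost in both TPM fits. Cox6c, of complex IV, was the higher one (log2 fold change 0.21 ± 0.08 SE, adjusted p = 0.04), a call lost without tumor 3 or without any of the DMSO cell libraries. Of the 13 mitochondrially encoded genes 11 were lower, with a median of -0.72 (10 lower, 1 higher and -0.36 with total count scaling). mt-Nd1, of complex I, was lower (log2 fold change -1.46 ± 0.07 SE, adjusted p = 9.2e-07), and mt-Co1, of complex IV, was lower by less (log2 fold change -0.70 ± 0.04 SE, adjusted p = 1.6e-06).

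Part of the mitochondrial difference followed how counts were shared between identical sequences. The transcript of Gm28661 is identical to mt-Co2 over its whole length in the GENCODE M21 transcripts used here, and it held 1800, 2813 and 2435 CPM in the tumors and 0 in the cells, whereas mt-Co2 held 1514, 854 and 1082 CPM in the tumors and 4486, 4221 and 4209 in the cells. The log2 ratio of mean CPM was -1.90 for mt-Co2 alone and -0.30 for the sum. For mt-Co3 with its identical copy Gm28437 the ratio was -0.86 alone and -0.16 for the sum, and for mt-Atp6 with Gm10925 it was -0.83 and -0.63. With copies added to their genes the list median was -0.60 and 11 genes were still lower.

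**Figure D4:**
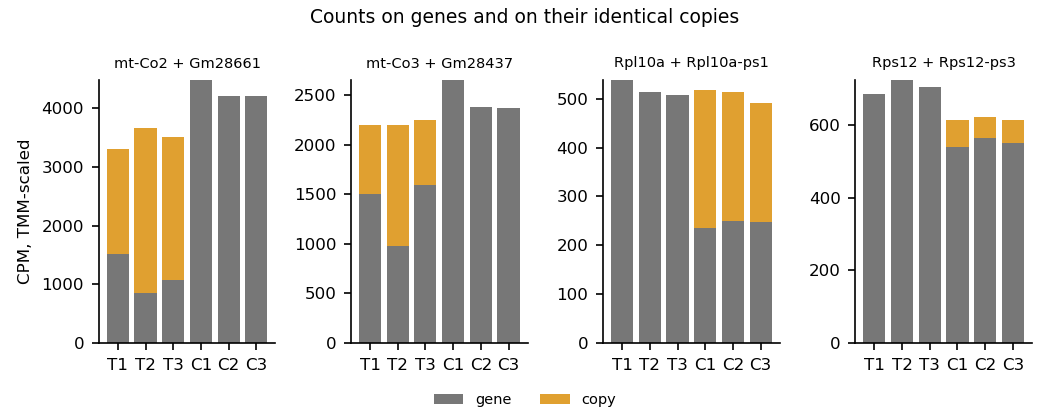
CPM on a gene (grey) and on its identical copy (orange) stacked in each library, T1 to T3 for vehicle tumors and C1 to C3 for DMSO cells, each panel starting at 0. Copies of mt-Co2 and mt-Co3 took counts in the tumors alone, copies of Rpl10a and Rps12 in the cells alone, and the stacked heights of Rpl10a were nearly equal in the 6 libraries.

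The same held for the largest decreases. By fold change, with predicted genes (Gm symbols) left out, the first places among the decreases were Rpl10a-ps1, Rps12-ps3, Rpl14-ps1 and, after Slc14a1, Rps27rt, all related to ribosomal protein genes, with a stretch shared by Rpl14-ps1 and Rpl14 covering 53.9% of the transcript. Rpl10a-ps1 was at 0 in the tumors and 282, 263 and 242 CPM in the cells, and Rpl10a, with an identical sequence, was at 538, 513 and 508 CPM against 235, 250 and 249 CPM. Their sum had a log2 ratio of 0.04. The sums of Rps12 with Rps12-ps3 (0.19) and Rps27 with Rps27rt (0.18) were also close to 0, so these copies are not given as decreases. The same comparison was made for Pgk1 with Gm5537, where the sum had a ratio of -0.18, and Psma3 with Gm13835, with -0.57. These pairs were chosen after their values were seen.

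Genes without an identical copy still fell by large amounts. Slc14a1, a urea transporter, was at 1.60, 1.36 and 2.36 CPM in the tumors and 152, 160.3 and 153 CPM in the cells (log2 fold change -6.51 ± 0.14 SE, adjusted p = 7.9e-08). Ccn2, a secreted matrix-associated protein and known target of YAP, was at 79.8, 79.4 and 77.4 CPM in the tumors and 582, 564 and 549 CPM in the cells (log2 fold change -2.84 ± 0.05 SE, adjusted p = 2.5e-08). Igf2bp1, an RNA-binding protein of growing cells (-3.08 ± 0.16 on the log2 scale), Krt6a, a keratin of activated epithelium (-2.72 ± 0.42), and Akr1b3, aldose reductase (-2.93 ± 0.05), were lower, the last with pseudogenes that share much of its sequence. Pik3r6, a regulatory subunit of a PI3 kinase (-2.63 ± 0.27), and Cavin2, of caveolae (-2.61 ± 0.35), completed the named decreases with AW822252 (-2.85 ± 0.15). For Krt6a, Pik3r6 and Cavin2 the tumors differed among themselves by more than for Ccn2 or Slc14a1, as the larger errors show.

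Of the stress pathways, the integrated stress list stood close to the shares over all genes, of which 44.8% were higher and 36.5% lower. Of 25 tested integrated stress and amino acid response genes, 10 were higher and 10 lower (10 and 7 without tumor 3), with a median log2 fold change of -0.01. Ddit3, the CHOP factor of prolonged stress (log2 fold change 3.25 ± 0.26 SE, adjusted p = 1.5e-05), and Trib3, a pseudokinase it induces (log2 fold change 2.64 ± 0.45 SE, adjusted p = 8.4e-04), were higher. Psat1 (-1.25 ± 0.17 on the log2 scale) and Shmt2 (-1.33 ± 0.06), of serine and one-carbon metabolism, were lower. Atf4, the factor at the head of the pathway, was lower by little (log2 fold change -0.38 ± 0.14 SE, adjusted p = 0.038), a call lost without tumor 3 and without any of the DMSO cell libraries.

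Of 18 ER chaperone and unfolded protein response genes, 10 were higher and 2 lower (4 lower without tumor 2), with a median of 0.21. Herpud1, which helps to clear misfolded proteins (1.88 ± 0.18 on the log2 scale), and Xbp1, a factor of secretory cells (1.69 ± 0.09), were higher. Heat shock genes went the other way, with 1 of 16 higher and 12 lower (11 lower without tumor 3, and 3 higher without tumor 2) and a median of -0.77 (2 higher, 9 lower and -0.42 with total count scaling). Hsp90aa1 (-1.36 ± 0.04), a cytosolic chaperone, Stip1 (-1.45 ± 0.09), its co-chaperone, and Hspd1 (-1.17 ± 0.05), a mitochondrial chaperone, were lower. Hsph1, whose error was larger (log2 fold change -1.005 ± 0.37 SE, adjusted p = 0.035), lost its call without tumor 3 or any of the cell libraries.

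Of 20 tested NRF2 antioxidant response genes, 9 were higher and 9 lower, again near the shares over all genes. Nqo1, a quinone reductase, was at 1.20, 1.36 and 1.55 CPM in the tumors and 0.0623, 0.251 and 0 CPM in the cells. It was called higher (log2 fold change 3.64 ± 0.61 SE, adjusted p = 8.4e-04), a value near the floor that moved by 1.56 without DMSO cells 2. Hmox1, the heme oxygenase that macrophages also make, was higher (log2 fold change 1.92 ± 0.28 SE, adjusted p = 3.9e-04). Txnrd1, thioredoxin reductase, was lower (log2 fold change -1.71 ± 0.07 SE, adjusted p = 5.1e-07). The p53 target list was also near those shares, with 8 of 18 tested genes higher and 9 lower (7 and 9 without tumor 3). Cdkn1a, the cell cycle inhibitor p21, was higher (log2 fold change 2.18 ± 0.08 SE, adjusted p = 4.1e-07), as were Trp53inp1 (4.90 ± 0.34 on the log2 scale) and Plk2 (at least 64.9-fold), whereas Ccng1 (-0.85 ± 0.06) and Mdm2 (-0.46 ± 0.06), the ligase that degrades p53, were lower, the call of Mdm2 being lost with total count scaling and in both TPM fits.

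Interferon response genes had higher levels in the tumors, many of them over cultures near 0. Type I interferons act through a complex of STAT proteins and IRF9, which binds the interferon-stimulated response element in target promoters, searched here as TTTC followed by any 2 bases and TTTC again. Of 35 tested members of 36, 32 were higher and 1 lower (30 and 1 without tumor 3), with a median log2 fold change of 3.26 when members at the floor in the cells were set to their floor. In every cell library 14 of the 36 had at most 3 counts and so could only be called higher. The 250 bases before the start are shown for Isg15 (chr4:156200819-156201068, minus strand), a ubiquitin-like protein, and Ifit1 (chr19:34640639-34640888, plus strand), which binds foreign RNA, both from RefSeq GRCm38.p6, with the element in capitals on either strand, 3 overlapping matches for Isg15 and 2 for Ifit1. The table held promoters for 26 of the 36 genes, and for 16 of the 24 cholesterol genes, under 80% of either list, so a share of promoters with a motif is void for these lists.
Isg15: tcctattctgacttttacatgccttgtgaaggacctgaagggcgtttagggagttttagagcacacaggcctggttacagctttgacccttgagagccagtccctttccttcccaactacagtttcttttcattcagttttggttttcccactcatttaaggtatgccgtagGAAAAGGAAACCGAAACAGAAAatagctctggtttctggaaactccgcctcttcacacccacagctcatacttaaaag
Ifit1: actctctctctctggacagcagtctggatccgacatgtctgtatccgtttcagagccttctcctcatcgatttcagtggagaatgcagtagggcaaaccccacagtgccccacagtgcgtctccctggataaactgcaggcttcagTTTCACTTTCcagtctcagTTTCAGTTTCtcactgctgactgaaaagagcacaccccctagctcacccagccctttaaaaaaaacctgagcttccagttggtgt

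Isg15 was at 6.03, 9.76 and 9.32 CPM in the tumors and 1.56, 1.82 and 0.982 CPM in the cells (log2 fold change 2.52 ± 0.29 SE, adjusted p = 1.0e-04), and Ifit1 was also higher (log2 fold change 3.57 ± 0.42 SE, adjusted p = 1.2e-04). Irf7, the factor that amplifies interferon production, had 2 counts over the cells, a ratio of 131 with a 95% counting interval of 36.3 to 1082, and Oas2, which senses double-stranded RNA, was at least 48.6-fold higher. The 1 lower gene was Ifit2, a relative of Ifit1, at 11.1, 10.7 and 10.6 CPM in the tumors and 41.7, 44.4 and 44.7 CPM in the cells (log2 fold change -2.01 ± 0.07 SE, adjusted p = 4.2e-07), so that Ifit1 and Ifit2 moved in opposite directions. Of 26 tested interferon-gamma response and antigen presentation genes, 23 were higher and none lower (24 of 27 without tumor 3), with a median of 3.16 by the same floor and 13 of the 28 listed genes with at most 3 counts in every cell library. Cd74, the invariant chain of antigen presenting cells, was at least 127-fold higher, Iigp1, an interferon-induced GTPase, at least 14.7-fold higher, and Cxcl9, a chemokine for T cells, was higher (log2 fold change 3.35 ± 0.42 SE, adjusted p = 1.7e-04). Leukocyte and endothelial markers were higher in the same libraries, and their part in the interferon genes was not tested.

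The cGAS-STING pathway senses cytosolic DNA, and the study's title names STING. The wider list of nucleic acid sensing genes, RNA sensors included, did not move as a whole. Of 14 tested genes of nucleic acid sensing, 7 were higher and 4 lower (3 lower without tumor 3), beside 44.8% higher and 36.5% lower over all genes tested. Tmem173, which encodes STING, was at 13.1, 11.9 and 10.99 CPM in the tumors and 1.43, 1.07 and 1.66 CPM in the cells (log2 fold change 3.11 ± 0.19 SE, adjusted p = 3.6e-06), with every tumor above every culture. Its effective length implied by counts and TPM was longer in the tumors by 0.93 on the log2 scale. By TPM the difference was smaller, at 12.8, 11.2 and 11.4 in the tumors and 2.42, 2.13 and 1.70 in the cells. Cgas, the enzyme that senses DNA, was lower (log2 fold change -0.87 ± 0.07 SE, adjusted p = 1.7e-05), and so was Tbk1, the kinase below STING (log2 fold change -0.46 ± 0.05 SE, adjusted p = 7.7e-05), a difference that was not called with total count scaling. Ifih1, the RNA sensor MDA5, was at least 15.3-fold higher. STING is also expressed by macrophages and endothelial cells, and the share of its RNA that came from them cannot be told apart.

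NF-kB targets and inflammatory chemokines were mostly higher, with 15 of 20 tested members higher and 4 lower and a median of 1.91. Ccl2, the chemokine that draws monocytes, was at least 25.2-fold and Il6, an inflammatory cytokine, at least 7.86-fold higher over cells at 0. The lower members included Tnfaip3, which shuts the pathway off (-0.86 ± 0.10 on the log2 scale), Ptgs2, an enzyme of prostaglandin synthesis (-0.82 ± 0.19), and Cxcl5, a neutrophil chemokine that the cultures made (-1.16 ± 0.13). The call of Ptgs2 was lost in both TPM fits. Immediate early genes, which respond within minutes to growth factors or handling, were higher for 16 of 22 and lower for 1, Fosl1 (log2 fold change -0.80 ± 0.26 SE, adjusted p = 0.021), a call lost without tumor 3 or DMSO cells 2. Egr1, a zinc finger factor, was at 196, 193 and 192 CPM in the tumors and 1.93, 1.70 and 1.78 CPM in the cells (log2 fold change 6.75 ± 0.06 SE, adjusted p = 7.0e-09), and Fos (5.95 ± 0.86 on the log2 scale) and Jun (1.45 ± 0.13), which pair as AP-1, were higher as well.

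The kinases that YJ1206 degrades differed little between tumors and cultures. Cdk12, which phosphorylates RNA polymerase II during elongation, was at 130.0, 138 and 128 CPM in the tumors and 145, 147 and 152 CPM in the cells (log2 fold change -0.16 ± 0.05 SE, adjusted p = 0.013), a call lost without tumor 3, and its direction turned with total count scaling (0.19). Cdk13, its paralog, was at 111, 103 and 111 CPM in the tumors and 113, 112 and 107 CPM in the cells and was not called (log2 fold change -0.03 ± 0.05). Ccnk, the cyclin that both kinases need, was lower in the tumors (log2 fold change -0.91 ± 0.05 SE, adjusted p = 2.5e-06).

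The treated libraries gave the same comparison in other material, as tumors of mice given YJ1206 against cells given YJ1206 in culture. Of the 11881 genes called above, 11585 were tested there, and 92.1% had the same direction. In that pair 13011 of 14650 genes tested were called (88.8%), 7359 higher (50.2%) and 5652 lower (38.6%), 5559 (37.9%) and 2920 (19.9%) of them by at least 2-fold. All 32 mitosis genes were lower, with a median of -3.05, and 36 of 37 tested replication genes were lower. For Egr1 the log2 fold change there was 0.02, beside 6.75 between vehicle tumors and DMSO cells. Immediate early genes had 5 higher and 12 lower, hypoxia genes 13 higher and 7 lower, and skeletal muscle genes 7 higher and 3 lower of 10 tested. The doses and durations of YJ1206 differed between tumors and cells, and the drug's part in these values cannot be told apart from that of the material.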

How the data were processed

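RNA was sequenced from Myc-CaP cells treated with DMSO and from vehicle-treated Myc-CaP tumors, 3 libraries each. The authors deposited estimated counts per gene and TPM for cells and for tumors in separate tables, and kallisto and the builds GRCm38 and mm10 were named in the submitters' processing notes; which annotation each table used is not given in the sources used here. TPM had been normalized within each library by the authors. Here the deposited estimated counts were rounded to whole numbers, joined by gene ID without version, filtered with filterByExpr, scaled by TMM and tested with the quasi-likelihood test of edgeR 4.0.16 (R 4.3.3, limma 3.58.1 and DESeq2 1.42.0 for alternatives), with Benjamini-Hochberg adjustment over all genes tested and a threshold of 0.05. The common biological coefficient of variation was 0.124. TPM were used for summed marker levels, for Des, Krt15 and Tmem173 where named, and as log2(TPM + 1) or log2(TPM + 0.1) in alternatives. All columns of per-sample values of these libraries were mapped by their names.

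A group at 0 was set to a floor of 3 counts per library, and 1 to 3 counts over a group gave a ratio with an exact 95% interval. Gene lists and members were chosen with earlier results of these data known. Named genes were the first 3 of each list, up to 3 called members with the largest change and up to 3 in the opposite direction, the 12 largest increases and decreases over all genes with at least 20 CPM and no overlap (leaving out 3 predicted genes each way), and Cdk12, Cdk13, Ccnk and Tmem173, and the text names those that its sentences need. Some genes that this rule picks are not reported here. Identical copies were found by aligning GENCODE M21 transcripts. Where a list symbol had 2 gene IDs, the ID with more counts was kept. The tests were checked on simulated counts with independent libraries and changes in few genes, balanced up and down. Here most genes differed and tumor 3 was not shown to be independent, so that check does not cover this setting. Same-numbered tumors and cells did not deviate together (correlations of -0.0060, -0.011 and -0.011), so replicate numbers were not used as pairs.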

Additional observations from a re-analysis of the deposited data

Results flagged for a closer look

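The cell table listed 5570 genes that the tumor table did not, and these genes were outside every comparison. They held 1.05% of the counts in DMSO cells 1, 0.979% in DMSO cells 2 and 1.01% in DMSO cells 3, which marked them as signal in data outside the main measurement.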

How the results depend on the processing

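Direction and threshold were kept by most values, with 2547 of 2623 single-gene values unchanged in call and direction, 55 no longer past the threshold and 21 reversed, and with 1344 of 1512 list counts within 1.5 times the count reported. The number of genes lower in tumors moved from 5331 to 3406 with total count scaling, and to 3253 with limma on log2(TPM + 1) and 3257 on log2(TPM + 0.1), which change the test and the length normalization as well. The number at least 2-fold lower moved from 1370 to 493 with total counts, 635 with upper quartile scaling, 474 and 534 with log2(TPM + 1) and log2(TPM + 0.1), 682 with a filter of 5 CPM in 3 libraries and 2920 in the YJ1206 pair, and the filter moved the number at least 2-fold higher to 2141. The filter tests 10784 genes. The cause of the other moves was not tested. Leaving out each library in turn gave 11297 to 12572 genes called, 6313 to 6974 higher, 4984 to 5598 lower, 4904 to 5229 at least 2-fold higher and 1351 to 1458 at least 2-fold lower. A replicate block gave 11765 genes called, 6459 higher and 5306 lower, 4817 and 1379 of them by at least 2-fold, and the call of Pfkfb3 was lost among the called named genes. DESeq2 called 12822 genes, voom with sample weights 12942, a fit without a filter on low counts 13333 and a fit with copies added to their genes, chosen after seeing the data, 11872.

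The results that reversed were the log2 fold change of Cdk12 (0.19 with total counts, 0.099 with upper quartile scaling, 0.053 with the 5 CPM filter, 0.21 with TPM at either pseudocount), the log2 fold change of Pfkfb3 (0.17, 0.077, 0.031, 0.30 and 0.31 in that order) and the log2 fold change of Cdk13 (0.32, 0.23, 0.19, 0.25 and 0.26, with 0.00818 under voom and a range of -0.072 to 0.0042 when each library was left out, the latter without tumor 2). The log2 fold change of Cox6c was -0.029 with counts rebuilt at equal length. In the YJ1206 pair the log2 fold change of Acta1 was -0.84, that of Hoxb13 -0.17 and that of Trib3 -0.44. Why these turned was not tested. In every cell library 9 of 11 T cell, 10 of 12 cytotoxic and NK cell and 6 of 8 B cell genes were at or below the floor of 3 counts, so their levels in the cultures were not measurable at this depth.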
